A study of Mus musculus with 5 samples.

Results

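Msln, Upk3b, Upk1b, Wt1, Lrrn4, Krt19, Krt8, Krt18, Muc16 and Gpm6a are 10 genes that mark the mesothelium of visceral fat. They were looked up by symbol in a table of RNA levels from primary epididymal adipocytes, and the values of all transcripts of a gene were added up. Of the 10 genes, 9 had rows, together 12 of the 36779 transcripts and 9 of the 24531 genes in the table. Muc16 is not analysed here. The samples were 2 libraries labelled Prmt1 FKO, from mice with an adipocyte-specific knockout of Prmt1, and 3 libraries labelled Prmt1 f/f, whose genotype entry reads WT. PRMT1 is an enzyme that methylates arginine residues of histones and other proteins. All mice were of the C57BL/6N strain and were fed a high-fat diet for 12 weeks. Neither their age nor the Cre line behind the knockout is stated in the labels. The labels do not say whether each library came from a separate animal, so p-values measure only the spread between these libraries.

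The mesothelium is a flat epithelium that covers the organs and fat pads of the body cavities, the epididymal fat pad included. Its cells lie on the surface of the pad and are not adipocytes. They carry surface glycoproteins such as mesothelin, keratin filaments of simple epithelia, and the transcription factor WT1. A preparation of adipocytes from this depot can hold some of these cells.

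The knockout was first checked in the targeted gene. Prmt1 had 21.0 and 19.3 CPM in the FKO libraries, against 34.1, 29.4 and 32.3 CPM in the f/f libraries. CPM is a gene's estimated count relative to the library total, here scaled between libraries by TMM factors. By the quasi-likelihood test of edgeR, the log2 fold change of Prmt1 was -0.66 with an SE of 0.14 (adjusted p = 0.0171), a call that ended without FKO replicate 1 (adjusted p = 0.115) or FKO replicate 2 (0.161). The libraries held 45665542 to 49981062 estimated counts in FKO and 43580154 to 57016997 in f/f, where 3 counts, the limit that a count of 0 allows, amount to at most 0.0713 CPM. Adipocyte markers (10 genes, among them Adipoq, Plin1 and Fabp4) summed to 52873 to 57461 CPM in FKO and to 36082 to 44149 CPM in f/f. Of the 10, 0 were called lower and 3 higher in FKO (Cidec, Pnpla2 and Slc2a4). The shares over all genes tested were 13.4% lower and 11.9% higher.

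All 9 measured mesothelial markers were lower in FKO. Their summed level was 26.8 and 16.99 CPM in FKO replicates 1 and 2, against 118, 56.6 and 93.9 CPM in f/f replicates 1 to 3. The group means were 21.9 ± 6.94 CPM in FKO (SD, n = 2) and 89.5 ± 30.9 CPM in f/f (SD, n = 3), 4.09-fold lower in FKO. All 9 passed the filter on low counts and each one passed the test on its own (edgeR quasi-likelihood test, adjusted over 14492 genes, threshold 0.05). Of all genes tested, 13.4% were called lower in FKO by the same rule, and 25.4% in either direction. Both FKO libraries lay below all 3 f/f libraries for each of the 9 markers, as they did for 30.5% of all genes tested. The median log2 fold change of the 9 was -2.14, against -0.047 for all genes tested. In bulk RNA, fewer cells of a type and less RNA per cell cannot be told apart.

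**Figure D1:**
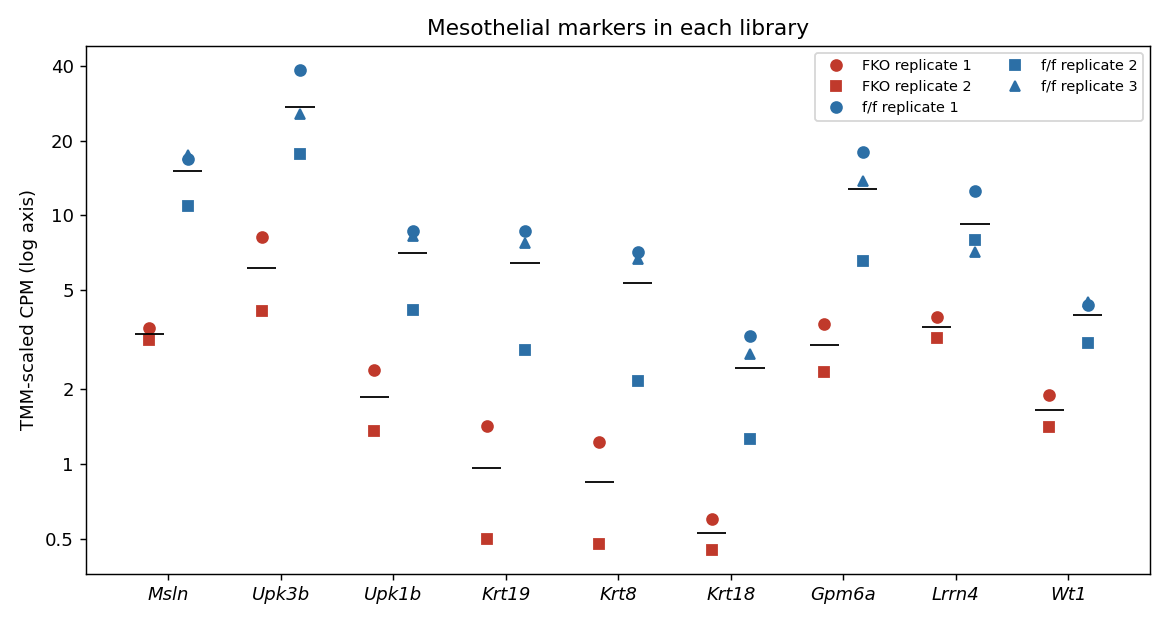
TMM-scaled CPM (log axis) of the 9 measured mesothelial markers in the FKO libraries (red, left in each pair) and the f/f libraries (blue, right), with the shape giving the replicate number and short lines the group means. Every red point lies below every blue point of the same gene, and f/f replicate 2 (blue square) is the lowest f/f library for 8 of the 9 genes.

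Among the surface glycoproteins, Msln encodes the precursor of mesothelin, a membrane-anchored protein that binds the mucin encoded by Muc16. Msln (gene 56047, mm10 chr17:25748613-25754327) had 3.51 and 3.14 CPM in FKO replicates 1 and 2, against 16.8, 10.9 and 17.5 CPM in f/f replicates 1 to 3. The FKO libraries lay close together and the lowest f/f library was 3.11-fold above the higher FKO library, the widest gap among the 9 markers. Msln was 4.53-fold lower in FKO (log2 fold change -2.18, SE 0.26, edgeR adjusted p = 0.00279), and it was the sole marker whose call held under each of the 16 alternatives tried.

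Upk3b and Upk1b belong to the uroplakins, membrane proteins best known from the surface of the bladder urothelium, where UPK1B is a tetraspanin that pairs with uroplakins of the UPK3 group. Upk3b (gene 100647, chr5:136038496-136044993) had 8.20 and 4.11 CPM in FKO, against 38.5, 17.6 and 25.6 CPM in f/f. The spread was wide within both genotypes, yet the groups did not overlap. Upk3b was 4.42-fold lower in FKO (log2 fold change -2.14, SE 0.42, edgeR adjusted p = 0.0127). Upk1b (gene 22268, chr16:38773184-38800203) had 2.38 and 1.35 CPM in FKO, against 8.63, 4.17 and 8.29 CPM in f/f. FKO replicate 2 and f/f replicate 2 were the lower library of their group for both uroplakins. Upk1b was 3.75-fold lower (log2 fold change -1.91, SE 0.42, edgeR adjusted p = 0.0184).

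Keratins 8, 18 and 19 form the filaments of simple epithelia, with the type II keratin KRT8 pairing with the type I keratins KRT18 and KRT19. Krt19 (gene 16669, chr11:100140811-100145926) had 1.42 and 0.499 CPM in FKO, against 8.67, 2.87 and 7.75 CPM in f/f. Krt8 (gene 16691, chr15:101996711-102004342) had 1.22 and 0.475 CPM in FKO, against 7.12, 2.16 and 6.70 CPM in f/f. FKO replicate 1 exceeded FKO replicate 2 by 2.85-fold for Krt19 and 2.57-fold for Krt8, and f/f replicate 1 exceeded f/f replicate 2 by 3.02-fold and 3.30-fold, so both genes varied widely within each genotype without overlap between them. Krt19 was 6.64-fold lower in FKO (log2 fold change -2.73, SE 0.63, edgeR adjusted p = 0.0215), and Krt8 was 6.23-fold lower (-2.64, SE 0.65, edgeR adjusted p = 0.0262). Without FKO replicate 1 the log2 fold changes were -3.68 for Krt19 and -3.48 for Krt8. Krt18 (gene 16668, chr15:102028216-102032026) had 0.600 and 0.452 CPM in FKO, from 27 and 19 counts, against 3.26, 1.26 and 2.78 CPM in f/f. Its groups stood apart although the FKO values rest on few counts. Krt18 was 4.59-fold lower (log2 fold change -2.20, SE 0.51, edgeR adjusted p = 0.0214). With limma-voom the calls of Krt19, Krt8 and Krt18 ended (adjusted p = 0.0575, 0.0776 and 0.0606).

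Krt8 and Krt18 are neighbours on chromosome 15, with 23873 bases between them in the table, and they encode the paired keratins of simple epithelia. Their promoter windows (RefSeq, GRCm38.p6, 250 bases before to 50 bases after the start, minus strand for Krt8 and plus strand for Krt18) are shown because both genes fell, with matches to TATAAA, the core of a TATA box, on either strand in capitals.
Krt8, chr15:102004293-102004592: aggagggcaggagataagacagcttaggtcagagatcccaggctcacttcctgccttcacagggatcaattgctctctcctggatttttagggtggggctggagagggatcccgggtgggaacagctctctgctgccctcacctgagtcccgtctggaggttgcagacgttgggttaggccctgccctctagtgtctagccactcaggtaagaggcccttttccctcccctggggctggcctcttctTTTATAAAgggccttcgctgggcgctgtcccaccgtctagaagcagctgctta
Krt18, chr15:102027966-102028265: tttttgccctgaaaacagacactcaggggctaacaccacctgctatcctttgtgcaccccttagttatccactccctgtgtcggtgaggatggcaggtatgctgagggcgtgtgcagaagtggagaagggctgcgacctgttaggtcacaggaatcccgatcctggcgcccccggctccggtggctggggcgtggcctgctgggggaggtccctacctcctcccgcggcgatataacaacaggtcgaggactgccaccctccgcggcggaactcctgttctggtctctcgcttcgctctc
In the Krt8 window TATAAA matches once on each strand, and in the Krt18 window there is no match. The 2 matches of Krt8 overlap and both span the annotated start. Whether they act as a TATA box was not tested. Of 32851 promoters of this length, 13.6% hold TATAAA on either strand.

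Shared sequence limits some values. Krt8 has a processed pseudogene, Krt8-ps, with 98.6% identity over 941 bases, and Krt18 has one, Gm5200, with 90.5% identity over 1267 bases, among GENCODE M21 transcripts. Neither is a row of the table, so reads from them could have been counted for Krt8 and Krt18, whose values are uncertain to that extent. Krt8 also overlaps Gm36026 on the opposite strand, and the sources used here do not say whether counting used strand. Gpm6a overlaps Gm45262, Gm45263, Gm45264, Gm45265 and A230085B16Rik on its own strand, which the table does not separate. The other 7 markers had no such copy at 90% identity over 200 bases.

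Lrrn4 and Gpm6a encode membrane proteins first described in neurons, a leucine-rich repeat protein and a multipass protein of the proteolipid family. Lrrn4 (gene 320974, chr2:132868516-132880862) had 3.91 and 3.21 CPM in FKO, against 12.6, 7.93 and 7.10 CPM in f/f. It was the exception to the order of the f/f libraries, since its lowest value was in replicate 3 and not in replicate 2. Lrrn4 was 2.58-fold lower in FKO (log2 fold change -1.37, SE 0.30, edgeR adjusted p = 0.0188). Gpm6a (gene 234267, chr8:54779434-55060878) had 3.67 and 2.35 CPM in FKO, against 18.03, 6.53 and 13.8 CPM in f/f. f/f replicate 2 again lay well under the other two f/f libraries. Gpm6a was 4.23-fold lower (log2 fold change -2.08, SE 0.45, edgeR adjusted p = 0.0181).

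The deposited table resolves RefSeq transcripts, and for 7 of the 9 markers it lists 1 transcript each. For Krt19, transcript variant 1 held 99.9% of the counts. For Gpm6a the variants differ in their start. Variant 2 starts 175294 bases upstream of variants 1 and 3 and was given 135 and 99 counts in FKO and 813, 328 and 881 in f/f. Variant 1 had 30 and 0 counts in FKO and 0, 18 and 0 in f/f, and variant 3 had 38 counts in f/f replicate 2 and 0 elsewhere. The upstream start thus held 81.8% and 100% of the Gpm6a counts in FKO and 100%, 85.4% and 100% in f/f. The variants share most of their sequence and these counts are the authors' estimates, so the split is less certain than the sum. The table used here gives sequence around both starts (same source, length and capitals, plus strand), shown because 96.3% of all Gpm6a counts fall to the first.
Gpm6a upstream start, chr8:54779184-54779483: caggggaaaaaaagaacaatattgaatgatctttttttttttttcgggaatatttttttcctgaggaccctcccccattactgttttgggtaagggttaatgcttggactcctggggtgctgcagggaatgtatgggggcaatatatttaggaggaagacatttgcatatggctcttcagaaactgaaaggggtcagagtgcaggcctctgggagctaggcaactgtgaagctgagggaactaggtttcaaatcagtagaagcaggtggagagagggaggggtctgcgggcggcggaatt
Gpm6a downstream start, chr8:54954478-54954777: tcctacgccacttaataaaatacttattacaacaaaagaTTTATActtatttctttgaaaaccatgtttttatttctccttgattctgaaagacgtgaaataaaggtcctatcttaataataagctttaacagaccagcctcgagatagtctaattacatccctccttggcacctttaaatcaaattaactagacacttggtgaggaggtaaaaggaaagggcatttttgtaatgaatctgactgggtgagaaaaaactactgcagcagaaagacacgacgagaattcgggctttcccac
The upstream window has no match to TATAAA and 47.0% G and C, and the downstream window has 1 match and 36.0% G and C, against a median of 52.7% over all promoters of the table.

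Wt1 encodes a zinc finger transcription factor of mesothelium, gonad and kidney podocytes. Wt1 (gene 22431, chr2:105126529-105173614) had 1.89 and 1.40 CPM in FKO, against 4.35, 3.08 and 4.47 CPM in f/f. Its f/f libraries spread the least of the 9 markers, with the highest 1.45 times the lowest, and the gap between the groups was also the narrowest, at 1.63-fold. Wt1 was 2.40-fold lower in FKO (log2 fold change -1.27, SE 0.30, edgeR adjusted p = 0.0249). GCGTGGGAG, a sequence that WT1 binds, was searched on both strands and had no match in the promoters of Krt8, Krt18, Upk3b, Lrrn4 and Gpm6a, the 5 measured markers in the promoter table, where 0.472% of all promoters hold it. These matches describe the letters of the windows and show no binding.

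**Figure D2:**
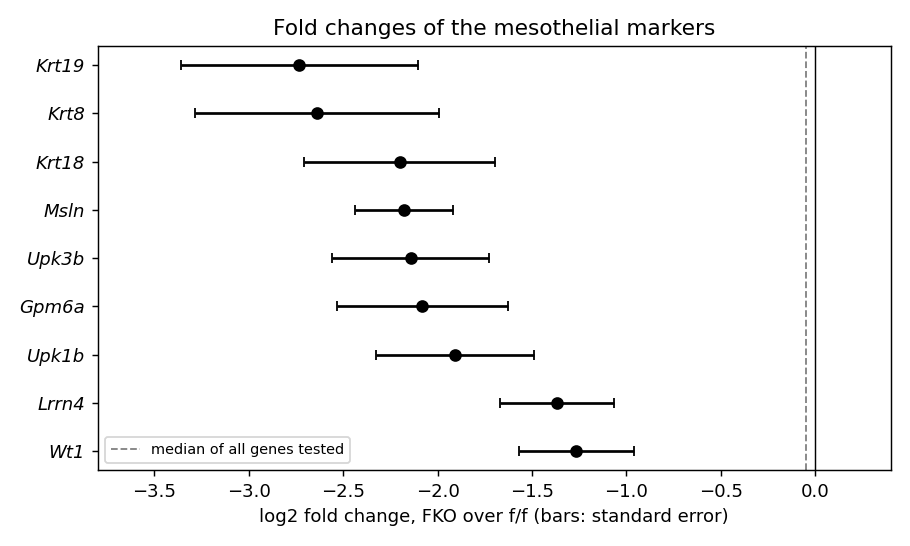
Log2 fold change of FKO over f/f for the 9 measured mesothelial markers, as points with bars of 1 standard error from the edgeR fit, and the median of all genes tested as a dashed line. The estimates run from -2.73 for Krt19 to -1.27 for Wt1, and all lie far to the left of the median of -0.047.

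Krt19 and Krt8 had the largest estimated falls and Wt1 and Lrrn4 the smallest, and the difference in fold change between markers was not tested. With limma on log2(FPKM + 1), Upk3b and Msln fell most. With limma on log2(FPKM + 0.1), Krt19 (-2.77) and Krt8 (-2.55) again fell most. Summed, the 3 keratins stood at 3.24 and 1.43 CPM in FKO, against 19.0, 6.29 and 17.2 CPM in f/f, 6.08-fold lower in FKO, and 9.95-fold lower without FKO replicate 1. The other 6 markers summed to 23.6 and 15.6 CPM in FKO, against 98.9, 50.3 and 76.7 CPM in f/f, 3.85-fold lower. Both sums were lower in FKO without overlap, which follows from the separation of each single marker and adds no check of its own.

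These calls rested on the number of libraries. Each of the 9 log2 fold changes stayed below 0 with each library left out in turn. Both FKO libraries lay below all f/f libraries for each marker, so leaving out 1 library could hardly turn a sign. Without f/f replicate 2, 9 still passed the test, and 8 did without f/f replicate 3 (10.8% and 11.8% of all genes called lower). Without FKO replicate 1 the calls of Msln, Upk3b and Krt19 held (3 of 9, with 2.83% of all genes called lower), and without FKO replicate 2 that of Msln alone (1 of 9, with 3.5% of all genes called lower). In both cases the lone FKO library is assumed to vary like the f/f libraries. Without f/f replicate 1, the library with the highest marker sum, 5 of 9 passed (12.2% of all genes called lower), the 3 keratins and Wt1 being lost.

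Between libraries of the same genotype the markers moved largely in the same direction. The share of all genes tested that moved so is not given here. FKO replicate 2 was below FKO replicate 1 for 9 of 9 markers, by 1.12-fold to 2.85-fold, where the median gene differed 1.12-fold between the FKO libraries in either direction. Among the f/f libraries, replicate 2 was the lowest for 8 of 9 markers and replicate 1 the highest for 7 of 9. The highest f/f library exceeded the lowest by 1.45-fold for Wt1 to 3.30-fold for Krt8, against 1.38-fold for the median gene. The mesothelial signal thus differed between f/f libraries by more than the typical gene did.

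The make-up of the signal can be compared per length with FPKM, the authors' values per transcript length and sequencing depth. Upk3b had the highest FPKM of the 9 in each of the 5 libraries, at 2.70 ± 1.23 FPKM in FKO (SD, n = 2) and 14.0 ± 5.21 FPKM in f/f (SD, n = 3). Msln came next in all 5, at 1.40 ± 0.0887 FPKM in FKO (SD, n = 2) and 7.49 ± 1.99 FPKM in f/f (SD, n = 3). Below them the order of f/f means was Krt19 (4.90 FPKM), Gpm6a (4.51), Upk1b (4.18), Krt8 (3.11), Lrrn4 (2.75), Krt18 (1.82) and Wt1 (1.34). In FKO the order of means below Msln was Upk1b (0.943 FPKM), Lrrn4 (0.915), Gpm6a (0.894), Krt19 (0.620), Wt1 (0.472), Krt8 (0.418) and Krt18 (0.332). The f/f ranges of all neighbours in the f/f order overlapped, so neighbours did not differ beyond their spread between libraries. Within a library, however, Upk3b exceeded Msln, Msln exceeded Krt19, Upk1b exceeded Krt8 and Lrrn4 exceeded Krt18 in 5 of 5.

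The ratio of some markers overlapped between the genotypes. Krt8 stood at 0.659 and 0.714 times the FPKM of Krt19 in FKO, and at 0.627, 0.578 and 0.660 times in f/f. Upk3b stood at 2.996 and 2.64 times the FPKM of Upk1b in FKO, and at 3.88, 3.68 and 2.69 times in f/f. By contrast with its level, the share of the summed FPKM held by Krt18 was 3.52% and 4.30% in FKO and 4.18%, 3.48% and 4.41% in f/f. From the lowest to the highest library these measures differed 1.23-fold, 1.47-fold and 1.27-fold.

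Of the 9 markers, Lrrn4 and Wt1 alone held a share of the summed FPKM that did not overlap between the genotypes. Lrrn4 held 9.29% and 12.5% of the summed FPKM in FKO, against 6.53%, 8.85% and 4.55% in f/f. Wt1 held 5.02% and 6.09% in FKO, against 2.53%, 3.84% and 3.20% in f/f. The shares of both were higher in each FKO library than in any f/f library, whereas their levels were lower. Both also had the smallest estimated falls among the markers, which a higher share restates. Some ratios with these genes did not overlap either. Wt1 stood at 0.367 and 0.303 times the FPKM of Msln in FKO, and at 0.176, 0.192 and 0.175 times in f/f. Lrrn4 stood at 0.679 and 0.624 times Msln in FKO, and at 0.455, 0.442 and 0.248 times in f/f. Krt19 stood at 1.70 and 0.808 times Wt1 in FKO, and at 4.48, 2.09 and 3.90 times in f/f. Krt8 stood at 0.604 and 0.281 times the FPKM of Lrrn4 in FKO, and at 1.09, 0.524 and 1.81 times in f/f, a 6.46-fold range over the 5 libraries in which the genotypes overlapped. These shares and ratios are descriptions without a test, and the FKO values of Krt8 in replicate 2 rest on 20 counts.

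**Figure D3:**
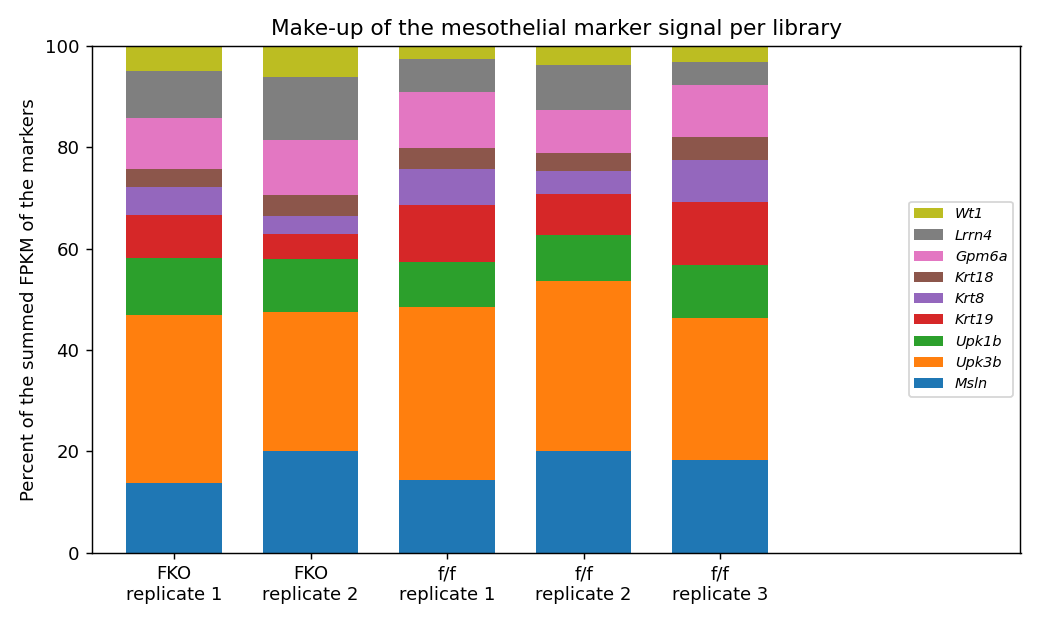
Percent of the summed FPKM of the 9 measured mesothelial markers held by each, for the FKO libraries (left) and the f/f libraries (right). Upk3b is the largest block in each library, at 27.5% to 34.1%, and the blocks of Lrrn4 and Wt1 are larger in both FKO libraries than in any f/f library.

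Further genes that mesothelial cells express moved in the same direction for the most part. Of 18 such genes, 17 were tested, 11 were called lower and 1 higher in FKO (13.4% and 11.9% of all genes tested were called lower and higher), with a median log2 fold change of -1.68. Calb2, which encodes calretinin, had 0 counts in all 5 libraries. Aldh1a2, a retinaldehyde dehydrogenase of mesothelium, had 1.24 and 1.66 CPM in FKO, against 6.92, 6.39 and 9.57 CPM in f/f (log2 fold change -2.39, SE 0.29, edgeR adjusted p = 0.00312). Pdpn, the mucin-type glycoprotein podoplanin, had 1.69 and 1.21 CPM in FKO, against 7.43, 4.27 and 9.46 CPM in f/f (-2.28, SE 0.40, edgeR adjusted p = 0.00922). The groups of both genes did not overlap. Nkain4, a small membrane protein, had 1.27 and 0.499 CPM in FKO, against 4.83, 1.92 and 4.17 CPM in f/f (-2.03, SE 0.56, edgeR adjusted p = 0.0367), with the lower library in each group the same as for the keratins. Bnc1, a zinc finger protein (-1.68, SE 0.48, edgeR adjusted p = 0.0435), Rspo1, a Wnt agonist (-1.84, SE 0.28, 0.0056), and Slpi, a protease inhibitor (-1.996, SE 0.52, 0.0327), were also called lower. With limma-voom the calls of Nkain4 (adjusted p = 0.0665), Bnc1 (0.0884) and Slpi (0.113) ended. This left 8 of the 17 lower, with 11.4% of all genes called lower. The call of Bnc1 also ended with the replicate block (edgeR adjusted p = 0.0858). All 3 ended as well without FKO replicate 1 or 2 or without f/f replicate 1 or 3, and the log2 fold change of Nkain4 was -2.86 without FKO replicate 1. These 6 genes and Prg4 below were picked for naming after their values were seen.

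The most abundant genes of that list are expressed by other cells of fat as well. Efemp1, a fibulin, fell to 49.0 and 55.0 CPM in FKO, against 177, 208 and 187 CPM in f/f (log2 fold change -1.87, SE 0.15, edgeR adjusted p = 0.00122), and Clu, clusterin, fell to 18.4 and 13.9 CPM, against 62.7, 81.2 and 85.2 CPM in f/f (-2.24, SE 0.21, edgeR adjusted p = 0.00159). In neither was f/f replicate 2 the lowest f/f library. Gata6, a transcription factor (-0.88, SE 0.16, edgeR adjusted p = 0.0106), and Ezr, the membrane linker ezrin (-1.18, SE 0.22, 0.0114), fell less. C3 (0.11), Igfbp5 (-1.01), Podxl (-0.51) and Cldn15 (-0.67) were not called by edgeR (adjusted p = 0.62, 0.135, 0.162 and 0.0607), and the sign of C3 turned under other scalings. Prg4, a lubricating proteoglycan, rose to 8.87 and 12.8 CPM in FKO, against 3.17, 3.20 and 4.12 CPM in f/f (1.63, SE 0.24, edgeR adjusted p = 0.00528). Without FKO replicate 1 or 2, fewer of the 17 genes were called lower, as were fewer of all genes tested. The calls of Gata6 and Ezr ended when either FKO library was left out. The calls of Pdpn and Prg4 ended without FKO replicate 2 alone, and Igfbp5 stood at -0.41 without f/f replicate 2.

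Of 7 tested paralogs of the markers, 1 was called lower and 1 higher, close to the 13.4% and 11.9% of all genes. Upk1a, the other tetraspanin uroplakin, had 92 and 64 counts in FKO, against 18, 2 and 10 counts in f/f (log2 fold change 3.22, SE 0.75, edgeR adjusted p = 0.0227), the opposite direction to Upk1b, and its call ended without FKO replicate 1 (0.118), FKO replicate 2 (0.0742) or f/f replicate 3 (0.0577). Without f/f replicate 1 its log2 fold change was 4.19. Upk1a was picked for naming with its values known. Upk2 and Upk3a had 0 counts in all 5 libraries. Lrrn2 had a log2 fold change of -1.03 (SE 0.30, edgeR adjusted p = 0.0433), and this call ended with any 1 of the 5 libraries left out (adjusted p = 0.0537 to 0.257) and with limma-voom (0.0505). Among 12 other keratins, 7 had 0 counts in every library, Krt5, Krt15 and Krt20 among them, and 5 were tested. Krt7, a type II keratin of simple epithelia, had 0.533 and 0.190 CPM in FKO, against 3.06, 1.60 and 3.03 CPM in f/f, in the same library order as Krt8 within FKO and with f/f replicate 2 again the lowest (-2.81, SE 0.56, edgeR adjusted p = 0.0135). Its call ended without FKO replicate 2 (0.0716), and without FKO replicate 1 its log2 fold change was -3.73. It is also 1 of the 17 mesothelial genes above. Krt80 was also lower (-2.97, SE 0.48, edgeR adjusted p = 0.00752), a call that ended without FKO replicate 1 (0.0523) or 2 (0.0525). Krt79 went the other way, at 93.9 and 111 CPM in FKO, against 12.0, 12.7 and 17.6 CPM in f/f (2.86, SE 0.20, edgeR adjusted p = 0.000832), and with it the 12 other keratins summed to 96.1 and 114 CPM in FKO, against 18.4, 19.7 and 26.4 CPM in f/f.

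Keratins and uroplakins are also made by epithelia other than mesothelium, so markers of the epididymal duct and of other epithelia were read in the same libraries. Of 11 epididymal epithelium genes, 2 were tested, 1 was called lower (Crisp1) and 1 higher (Rnase10), and 7 had 0 counts in all 5 libraries, among them Lcn5, Lcn8 and Gpx5. Crisp1, a secretory protein of that epithelium, had 0 and 0 counts in FKO, against 283, 21 and 63 counts in f/f, so the f/f library with the most Crisp1 was also the one with the highest marker sum. The summed level of the list was 0.733 and 0.689 CPM in FKO, where Rnase10 made up all of it, against 6.67, 0.510 and 1.08 CPM in f/f. Epcam and Cdh1, which define most columnar epithelia, had 0 counts in FKO and 16 and 6 counts summed over f/f. The part of these cells in the keratin values was not tested. Among 15 desmosome and epithelial junction genes, 7 were tested, and Dsg2 had 0 counts throughout. Of the 7, 2 were lower (Pkp1 and Pkp2, plakophilins of the desmosome) and 0 higher. Over all genes tested, 13.4% were called lower and 11.9% higher.

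Most macrophage markers and some fibroblast markers were also called lower in FKO. The counts below stand beside 13.4% of all genes tested called lower and 11.9% called higher. Macrophage markers (11 of 11 tested, 10 lower and 0 higher, median log2 fold change -1.52) summed to 381 and 501 CPM in FKO, against 1302, 1000 and 1781 CPM in f/f. The most abundant of them were Lyz2 (log2 fold change -1.65, SE 0.33, edgeR adjusted p = 0.0141), Csf1r (-1.52, SE 0.17, 0.00237) and Mrc1 (-1.47, SE 0.23, 0.00627). Fibroblast and progenitor markers (11 of 11 tested, 5 lower and 0 higher, median -1.42; Dcn, Col1a1, Col1a2, Col3a1 and Dpp4) summed to 412 and 392.3 CPM in FKO, against 775, 1044 and 1188 CPM in f/f, led by Col3a1 (-1.48, SE 0.23, edgeR adjusted p = 0.00649), Dcn (-0.75, SE 0.15, 0.0149) and Col1a2 (-2.25, SE 0.32, 0.00486). For both lists the FKO sums lay below all f/f sums, as for the mesothelial markers. The order of libraries within a genotype was not the same, however. The macrophage sum was higher in FKO replicate 2 than in FKO replicate 1, whereas the mesothelial sum was lower, and the fibroblast sum was lowest in f/f replicate 1, where the mesothelial sum was highest. Endothelial markers (8 of 8 tested, 0 lower and 0 higher, median -0.21) summed to 514 and 468 CPM in FKO, against 459, 569 and 719 CPM in f/f, and mural cell markers (6 of 6 tested, Rgs5 and Acta2 lower, Cspg4 higher, median -0.47) to 443 and 452 CPM in FKO, against 267, 485 and 374 CPM in f/f. The mural gene Cspg4 was at 285 and 288 CPM in FKO, against 43.9, 69.2 and 32.5 CPM in f/f, and Acta2 at 36.6 and 41.3 CPM in FKO, against 88.3, 213 and 132 CPM in f/f. For endothelial and mural cells the sums of the genotypes overlapped. Lymphocyte markers summed to at most 1.31 CPM in FKO and 1.78 CPM in f/f, and Schwann cell markers to at most 7.30 CPM in FKO and 7.47 CPM in f/f. Without FKO replicate 1 or 2, fewer genes of both lists were called lower, as were fewer of all genes tested. The part of cell make-up in the difference between the genotypes was not tested.

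**Figure D4:**
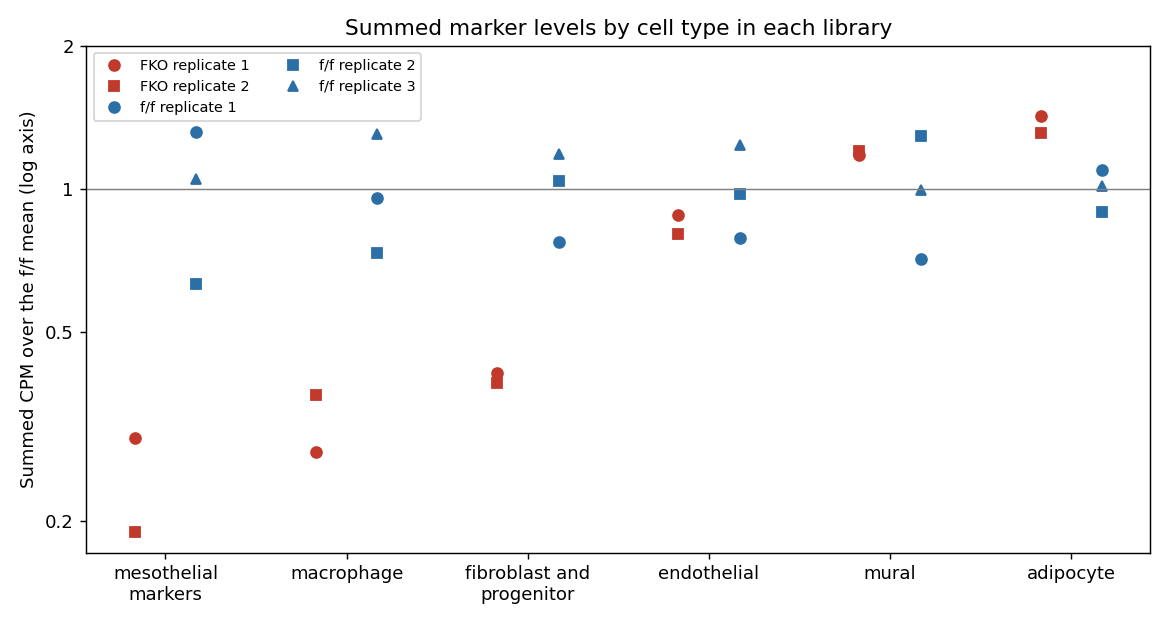
Summed CPM of marker lists in each library divided by the f/f mean of that list (log axis), FKO in red on the left of each pair and f/f in blue on the right, with the shape giving the replicate number. Mesothelial, macrophage and fibroblast sums are lower in both FKO libraries than in any f/f library, endothelial and mural sums overlap, and adipocyte sums are higher in FKO.

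The genes whose profile over the 5 libraries lay nearest to the mean profile of the 9 markers were Vsig4, Cyp2s1, Spock2, Fras1, Igfbp6, Cd209b, Ccr1 and Wfdc17. They were ranked among 11893 genes that are no member, have at least 1 CPM on average and carry no Gm, Rik or LOC name. Likeness was the root mean square difference of centred log2 CPM, which was 0.031 for Vsig4, 0.085 for Cyp2s1 and 0.20 for Wfdc17, against 1.10 for the median gene. The markers themselves lay at 0.092 (Upk1b) to 0.48 (Lrrn4) from their own mean profile. Vsig4, a complement receptor of resident macrophages, had 0.400 and 0.238 CPM in FKO, against 1.91, 0.884 and 1.64 CPM in f/f. Vsig4 was picked by its likeness to the markers, so its order of libraries within each genotype follows from that choice. The summed macrophage markers had the other order within FKO, at 381 CPM in replicate 1 and 501 CPM in replicate 2. A set of 5 libraries is small for a likeness of this kind.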

How the data were processed

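RNA of 5 libraries (2 FKO, 3 f/f) was sequenced with poly-A selection, per the labels' protocols. The deposited table gives estimated counts and FPKM per RefSeq transcript on mm10, and the submitters' processing notes name HISAT2 2.1.0 and StringTie 1.3.4d, with no role or order. The authors' counts are whole numbers estimated per transcript. Here they were summed per gene ID, as were the authors' FPKM, and 1 empty row was left out. Counts were tested with edgeR 4.0.16 (quasi-likelihood test, TMM scaling, filter on low counts, genotype as the sole term, Benjamini-Hochberg adjustment, threshold 0.05) in R 4.3.3. The TMM factors were 0.900 and 0.922 in FKO and 1.04 to 1.12 in f/f. The pipeline was tested on simulated data. Alternatives were DESeq2 1.42.0, limma 3.58.1 on voom weights and on log2(FPKM + 1) or log2(FPKM + 0.1), other scalings and filters, a replicate block, and each library left out. Intervals were not computed, and the limit for a count of 0 covers counting error only. The members and gene lists were chosen with earlier results of these data known. The rule named the members, Prmt1, the 8 genes of the further mesothelial list and the 3 genes of each other list with the highest mean CPM (given as list sums where not printed), and the 8 genes nearest in profile. Other named genes were chosen after their values were seen.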

Additional observations from a re-analysis of the deposited data

How the results depend on the processing

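All 9 markers had a negative log2 fold change under each of the 16 alternatives. As both FKO libraries lay below all f/f libraries for each marker, the alternatives left little room for a sign to turn. The log2 ratio of their summed CPM ran from -2.40 to -1.74 under 3 other scalings and with each library left out, and was -2.34 for summed FPKM. The number called lower was 9 under the other scalings (13.0% to 20.1% of all genes lower) and filters (9.98% and 14.5%). It was also 9 with limma on filtered log2 FPKM (19.9% and 21.4%) and with DESeq2 (17.6%). It was 6 with limma-voom (11.4%) and 5 with limma on log2(FPKM + 1) without a filter (11.1%). With an f/f library left out, 5 to 9 were called lower (10.8% to 12.2%). With an FKO library left out, fewer markers and fewer of all genes were called lower. Genes called lower and higher over the whole table were 1944 and 1730 with TMM scaling, 2415 and 1299 with upper-quartile scaling, 2916 and 1030 with library size alone, and 2505 and 1051 with log2(FPKM + 1). They were 2695 and 1058 with log2(FPKM + 0.1), and 1987 and 908 with log2(FPKM + 1) without a filter. With a library left out, genes called lower ran from 424 to 1759 and genes called higher from 485 to 1690. The median of all genes moved from -0.047 to -0.17 with upper-quartile scaling and -0.27 with library size alone. The sign turned for C3 (-0.013 with upper-quartile scaling, -0.11 with library size alone, -0.10 with log2(FPKM + 1) with or without a filter and with log2(FPKM + 0.1)) and for Krt10 (-0.32 to 0.096 with a library left out, above 0 without FKO replicate 1), and the cause was not tested. With the replicate number as a block, 9 markers were called lower, beside 1727 of all genes (11.9%), and 1551 genes were called higher. Tm4sf5 turned to 0.15 with this block. The titles give same-numbered libraries a shared replicate number. Their correlations of deviations were 0.066 and -0.081 over 2 pairs. Deviations of 2 FKO libraries mirror each other, so these correlations cannot tell whether the libraries were paired. FKO replicate 2 was the lower FKO library for 9 of 9 markers, and f/f replicate 2 the lowest f/f library for 8 of 9. Pairing itself was not tested. With 2 FKO libraries, 1 library decides most calls, and markers under 1 CPM in FKO rest on few counts.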
